A study of Saccharomyces cerevisiae with 18 samples.

Results

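The comparison described here is what the loss of UBP8 adds in budding yeast cells that already lack DOT4. It sets the dot4ubp8 null (double null) against the dot4 null in Saccharomyces cerevisiae grown in YEPD, a rich glucose medium, and uses 12 of the 18 arrays of the series. On every array, total RNA from a null strain was hybridised in 1 channel and that of the wild type in the other, for 6205 open reading frames (ORFs). The 12 arrays form 3 sets for each genotype. A set holds 2 arrays with the channels of null and wild type exchanged, and their average is a set mean. The contrast therefore compares 3 set means a side, 6 of the 9 set means in the series. The other 3 set means are of the ubp8 null, in which DOT4 is present.

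The wild type is strain UCC6389, the dot4 null UCC6390, the ubp8 null UCC6392 and the double null UCC6393. Dot4 null and double null both lack DOT4. Each genotype is 1 strain, so a difference between 2 strains and the effect of the deletion cannot be told apart. The label of the double null array of set 3 with null RNA in channel 2 carries the strain number UCC6392 beside the double null genotype. The labels give neither the alleles nor the markers that replaced the genes, and do not say whether sets are separate cultures, so the p-values measure the spread between sets, which may be technical. RNA came from whole cultures, in which fewer expressing cells and less RNA per cell cannot be told apart.

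DOT4 is the older name of UBP10. Ubp8 and Ubp10 are ubiquitin proteases that remove ubiquitin from histone H2B. Ubp8 works in the deubiquitination module of SAGA, a coactivator complex that also acetylates histones at promoters, and its activity is linked to transcription of inducible genes. Ubp10 is known for its part in telomeric silencing and acts on H2B outside SAGA. Ubiquitin is placed on H2B by Rad6 and Bre1 with help of the PAF1 complex, and the mark is needed for methylation of histone H3 by Set1 and Dot1.

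Levels below are given on the log2 scale as null over wild type, with each array centred on its median. A difference is double null minus dot4 null, given ± its standard error from a limma fit over the 9 set means, and an ORF is called at a Benjamini-Hochberg adjusted p under 0.05 over all 6205 ORFs. The arrays matched their genotypes at the deleted genes. UBP8 was at -0.08, -0.07 and -0.06 in dot4 null sets 1 to 3, and at -2.64, -2.92 and -3.26 in the double null sets. The 2 groups did not overlap, and the difference was -2.87 ± 0.13 (adjusted p = 2.71e-07, limma). In the ubp8 null UBP8 stood at -2.94. UBP10 was at -5.21, -5.20 and -4.75 in the dot4 null sets and at -4.60, -4.90 and -4.58 in the double null sets. These values overlapped, and the small difference of 0.36 ± 0.12 (adjusted p = 0.0222, limma) was 1.17 from the arrays with null RNA in channel 1 and -0.45 from those with it in channel 2. On the 3 double null arrays with null RNA in channel 1, UBP8 read -1.49, -2.08 and -3.15, and on the 3 with it in channel 2, -3.79, -3.76 and -3.38. The array with the conflicting strain number had UBP10 at -4.67 and UBP8 at -3.38, both low, which the ubp8 null did not show for UBP10.

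Of the ORFs beside the deleted genes, FSH2, next to UBP8, was lower in the double null, with a difference of -0.66 ± 0.04 (adjusted p = 1.82e-06, limma) and stood at -0.55 in the ubp8 null. MRE11, on the other side of UBP8 and part of the double-strand break repair complex, differed by 0.06 ± 0.05, which was not called. SWT21, next to UBP10, was higher in the double null by 0.39 ± 0.04 although both strains lack UBP10, and MRPL19, a mitochondrial ribosomal protein gene on the other side, differed by -0.05 ± 0.04 and was not called.

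Loss of UBP8 without DOT4 was accompanied by many small differences and a smaller number of large ones, most of them increases. The double null was higher for 1800 ORFs (29.0% of those tested) and lower for 1814 (29.2%), with a median standard error of 0.048. At least 1.5-fold, 251 ORFs were higher (4.05%) and 45 were lower (0.725%). At least 2-fold, 36 were higher and 4 lower. In 4036 ORFs (65.0%) the 3 double null set means all lay above or all below the 3 dot4 null set means, and this held for 295 of the 296 ORFs past 1.5-fold. The sign was the same in both dye orientations for 91.6% of the called ORFs. In 259 of the 296 both orientations, each on its own, gave a call in the same direction. A call rests on the average of the orientations and so favours ORFs in which they agree, and these shares are no separate check. Without centring of the arrays the median of all ORFs moved from -0.01 to -0.10, with 664 called higher and 1318 lower. The uncentred fit called 11 of 38 respiratory chain genes, 26 of 59 meiosis and sporulation genes, 15 of 34 glucose-repressed genes, 10 of 22 heat shock genes, 7 of 20 hexose transporters, 7 of 17 thiamine genes, 8 of 22 arginine, allantoin and urea genes, 5 of 23 seripauperin genes, 6 of 16 DNA damage genes and 3 of 11 histone genes higher, each fewer than the count given below by over 1.5 times, while 79 of 96 ribosome biogenesis genes were lower and 30 of 45 general stress genes higher. With quantile normalization 122 ORFs were higher by at least 1.5-fold, and from channel 2 alone 384. Counts of list members below are read against the shares of all ORFs, 29.0% higher and 29.2% lower, and against the median of -0.01.

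Most ORFs that were higher by at least 1.5-fold after UBP8 loss lay within 1.5-fold of wild type when DOT4 alone was missing. Of the 251, 229 lay within 1.5-fold of wild type in the dot4 null and 160 lay at least 1.5-fold above it in the double null. The dot4 null mean was below wild type for 155 of them, and the 2 genotypes stood on opposite sides of it for 149. The difference subtracts the dot4 null value, so a low value there raises it. Of the 45 lower ORFs, 15 were already at least 1.5-fold below wild type when DOT4 alone was missing, and 31 when UBP8 was missing too. Such shares were not counted over all ORFs, whose median in the dot4 null was -0.01. These counts are therefore not read as a trait of either group. Of the 251, 169 were in none of the gene lists other than those by position, and of the 45, 15. These lists include the marker genes and some lists that are not described below.

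**Figure D1:**
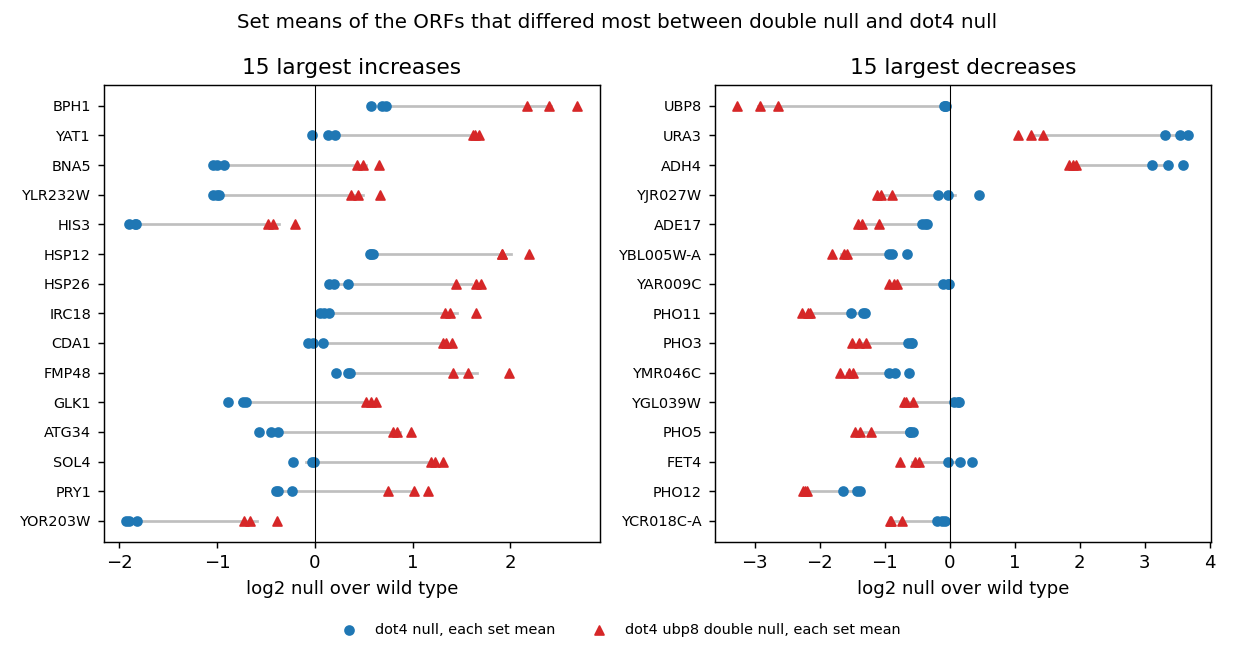
Log2 ratio of null over wild type (horizontal axis) for the 15 ORFs with the largest called increases (left) and decreases (right), with circles for the 3 dot4 null set means, triangles for the 3 double null set means and a grey line between the fitted group means. The 30 were chosen among ORFs whose circles and triangles do not overlap, and URA3 and ADH4 stay above 0 in both genotypes.

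The largest increase was in BPH1, which encodes a BEACH domain protein linked to cell wall and sorting functions. BPH1 was at 0.72, 0.69 and 0.57 in the dot4 null sets and at 2.39, 2.17 and 2.68 in the double null sets. All 3 double null sets stood far above the dot4 null sets, and the difference was 1.75 ± 0.11, or 3.37-fold (adjusted p = 1.8e-06, limma). In the ubp8 null BPH1 was at -0.18 ± 0.08, which was not called against wild type. The ORFs beside it, looked up after this value was seen, did not rise with it: RPS14A differed by 0.09 and was not called, and SNT1 fell by 0.28.

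A gene of carnitine metabolism and a gene of NAD synthesis came next. YAT1, an outer mitochondrial carnitine acetyltransferase, was at 0.21, 0.13 and -0.03 in the dot4 null sets and at 1.68, 1.64 and 1.61 in the double null sets, a difference of 1.54 ± 0.09 or 2.91-fold (adjusted p = 7.98e-07, limma). BNA5, the kynureninase of NAD synthesis from tryptophan, was at -0.94, -1.01 and -1.04 in the dot4 null sets and at 0.65, 0.43 and 0.49 in the double null sets. It thus stood below wild type in every dot4 null set and above it in every double null set, with a difference of 1.52 ± 0.06 (2.87-fold). YLR232W, a dubious ORF overlapping BNA5, differed by 1.51 ± 0.07, and whether its probe reads BNA5 RNA was not tested. Others among the 15 largest increases were IRC18 at 1.35, FMP48 at 1.35, PRY1, which encodes a secreted sterol-binding protein, at 1.31, and ATG34, a receptor of selective autophagy, at 1.34.

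Genes of the general stress response, many of them targets of Msn2 and Msn4 and active when growth slows, were higher in the double null almost without exception. Of 45 measured, 42 were called higher, 19 of them by at least 1.5-fold, and none lower, and the median difference was 0.54 against -0.01 over all ORFs. The list's median was -0.09 in the dot4 null against 0.36 in the double null sets, and 0.28 in the ubp8 null. GLK1, glucokinase, was at -0.73, -0.71 and -0.89 in the dot4 null sets and at 0.62, 0.53 and 0.57 in the double null sets. Every dot4 null set was below wild type and every double null set above it, with a difference of 1.35 ± 0.08 (adjusted p = 1.24e-06, limma). SOL4, a 6-phosphogluconolactonase of the pentose phosphate path, differed by 1.33 ± 0.09 and HOR7, a small stress-induced protein, by 0.98 ± 0.09.

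HXK1, the hexokinase that is repressed on glucose, was at -0.99, -0.98 and -1.02 in the dot4 null sets and at 0.10, 0.07 and 0.04 in the double null sets. The double null had 2.1-fold more than the dot4 null and lay near wild type, with a difference of 1.07 ± 0.05 (adjusted p = 3.41e-07, limma). In the ubp8 null HXK1 was lower than in wild type, at -0.28 ± 0.04 (adjusted p = 0.000103, limma).

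Heat shock protein genes followed in the same direction, with 16 of 22 higher, 1 lower and a median of 0.35. HSP12, a membrane-stabilising stress protein, was at 0.59, 0.58 and 0.56 in the dot4 null sets and at 1.91, 1.91 and 2.19 in the double null sets, a difference of 1.43 ± 0.07 or 2.69-fold (adjusted p = 2.74e-07, limma). HSP26, a small chaperone, was at 0.34, 0.19 and 0.14 and at 1.65, 1.44 and 1.70, a difference of 1.37 ± 0.09. For both genes the lowest double null set was well above the highest dot4 null set. SSE2, a nucleotide exchange factor of the Hsp70 family, differed by 0.79 ± 0.06, and HSP31, a chaperone and methylglyoxalase, by 0.99 ± 0.08. With DOT4 present HSP31 was at 1.01, and the difference between these 2 values was -0.03 ± 0.10 (adjusted p = 0.862, limma).

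Genes for trehalose and glycogen, the storage sugars of yeast, were higher in 15 of 20 cases and lower in 1, with a median of 0.39 (0.20 from channel 1 and 0.57 from channel 2). TSL1, a subunit of the trehalose synthase complex, was at -0.51, -0.49 and -0.67 in the dot4 null sets and at 0.83, 0.67 and 0.45 in the double null sets, and differed by 1.21 ± 0.09. GPH1, glycogen phosphorylase, was at -0.04, -0.20 and -0.32 and at 0.94, 0.69 and 0.80, and differed by 1.0 ± 0.10. For both genes all 3 dot4 null sets lay below wild type and all 3 double null sets above it. PGM2, phosphoglucomutase, and GDB1, the glycogen debranching enzyme, differed by 0.77 ± 0.05 and 0.74 ± 0.06.

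Glycolytic genes were higher in 12 of 18 cases and lower in 1, with a median of 0.40. Their median was -0.33 in the dot4 null against -0.06 in the double null sets. TDH3, the main glyceraldehyde-3-phosphate dehydrogenase, differed by 0.60 ± 0.07, GPM1, phosphoglycerate mutase, by 0.60 ± 0.08, and PGK1, phosphoglycerate kinase, by 0.60 ± 0.06. Without the double null array of the conflicting strain number, only 4 of the 18 were called higher and the median was 0.20. Of the hexose transporters, 16 of 20 were higher, with a median of 0.32, and whether related genes share probe signal was not tested. The exception past 1.5-fold was HXT2, a high-affinity transporter, lower with a difference of -0.63 ± 0.04 and at -0.73 in the ubp8 null. HXT10 differed by 0.51, but by -0.01 from channel 1 and 1.04 from channel 2, and from channel 1 alone only 5 of the 20 transporters were called higher.

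Genes for use of acetate, fatty acids and the carnitine shuttle, many but not all of them repressed by glucose, were higher in 26 of 34 cases and lower in 2. This list, named glucose-repressed for short, had a median of 0.31 (0.20 from channel 1 and 0.39 from channel 2). All 5 genes of the carnitine shuttle, YAT1 among them, were called higher. The 2 lower calls of the list were both lost without dot4 null set 1, 2 or 3 and without double null set 2. SIP4, an activator of gluconeogenic genes, differed by 0.85 ± 0.09, SPS19, a peroxisomal reductase of fatty acid breakdown, by 0.69 ± 0.05, and ALD6, the cytosolic acetaldehyde dehydrogenase, by 0.64 ± 0.05. The galactose genes, which glucose also represses, were higher in 6 of 7 cases, GAL10 by 0.75 ± 0.08. From channel 1 alone 4 of these 7 were called.

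Respiratory chain and ATP synthase genes were higher in 31 of 38 cases and lower in 1, with a median of 0.29. The list's median was -0.18 in the dot4 null, 0.17 in the double null sets and 0.03 in the ubp8 null. COX5B, the subunit of cytochrome oxidase made when oxygen is low, was at -0.25, -0.27 and -0.39 in the dot4 null sets and at 0.53, 0.57 and 0.76 in the double null sets, and differed by 0.92 ± 0.08 (adjusted p = 8.65e-06, limma). CYT1, cytochrome c1, differed by 0.73 ± 0.08, SDH2, a subunit of succinate dehydrogenase, by 0.68 ± 0.06, and CYC7, the second isoform of cytochrome c, by 0.69 ± 0.05. CYC7 differed by 0.23 in channel 1 and 1.14 in channel 2, and over the list channel 1 gave 35 calls above 0 and channel 2 gave 18.

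Genes of meiosis and spore formation, normally silent in growing cells, were higher in 41 of 59 cases, 16 of them by at least 1.5-fold, and lower in 2, with a median of 0.27. CDA1, a chitin deacetylase of the spore wall, was at -0.02, 0.08 and -0.07 in the dot4 null sets and at 1.34, 1.41 and 1.31 in the double null sets, a difference of 1.35 ± 0.06 (adjusted p = 2.1e-07, limma). The size depended on the orientation, being 0.54 in channel 1, where it was not called, and 2.17 in channel 2. SPS22, a spore wall protein, SHC1, an activator of chitin synthase in sporulation, and REC8, the meiotic cohesin, differed by 0.94 ± 0.08, 0.93 ± 0.06 and 0.83 ± 0.12. Over the whole list the median was 0.17 with 28 called higher in channel 1 and 0.54 with 44 in channel 2. Without double null set 3, 4 were called lower.

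**Figure D2:**
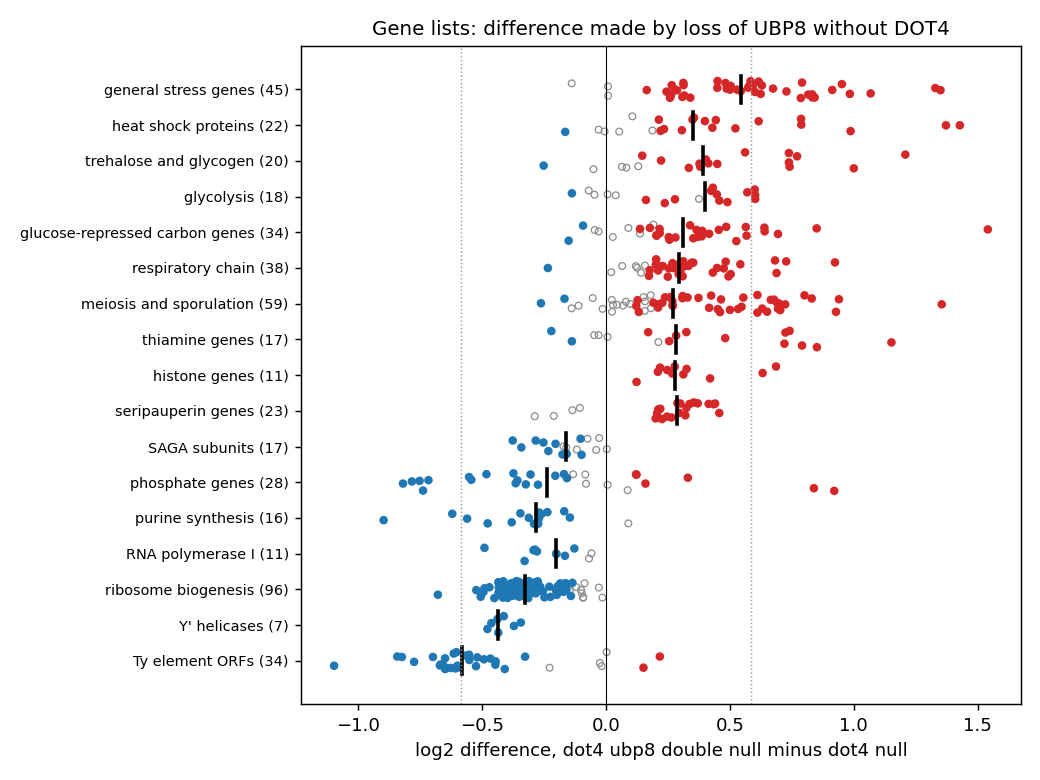
Log2 difference, double null minus dot4 null, for each measured member of 17 gene lists (numbers of members in parentheses). Filled points are called ORFs (red above 0, blue below), open points are not called, black bars are list medians and dotted lines mark 1.5-fold. Stress, storage sugar and respiratory genes lie mostly above 0, and ribosome biogenesis, purine and Ty element ORFs mostly below.

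Ribosome biogenesis genes moved the other way. None of 96 was called higher and 86 were called lower, with a median of -0.33, and 1 of them passed 1.5-fold. In the dot4 null the list lay above wild type, with medians of 0.31, 0.29 and 0.38 in its 3 sets, and in the double null it was near the wild type level, with -0.04, -0.02 and 0.05. In the ubp8 null its median was -0.23, with 84 of 96 called lower. The small subunit processome had 40 of 44 called lower and the large subunit assembly factors 46 of 52.

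DBP3, an RNA helicase of early rRNA processing, was at 0.35, 0.38 and 0.46 in the dot4 null sets and at -0.31, -0.34 and -0.19 in the double null sets. It crossed from above to below wild type in all 3 sets, with a difference of -0.68 ± 0.05 (adjusted p = 2.43e-06, limma). NOP12, needed for maturation of the large subunit rRNA, fell by 0.52, IPI3, of the Rix1 complex, by 0.51 and SAS10, of the small subunit processome, by 0.49. Of the RNA polymerase I subunits, 9 of 11 were called lower and none higher, with a median of -0.20. RPA190, the largest subunit, was at 0.29, 0.34 and 0.37 in the dot4 null sets and at -0.15, -0.14 and -0.18 in the double null sets, and differed by -0.49 ± 0.04. From channel 2 alone 5 of these 11 were called lower.

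Of 137 cytosolic ribosomal protein genes, 31 were lower and 7 higher, with a median of -0.06, which was 0.02 in channel 1 and -0.10 in channel 2. The counts were 17 lower and 19 higher in channel 1 and 42 and 4 in channel 2. Without double null set 1, 47 were lower, and without double null set 3, 22 were lower and 14 higher, with a median of -0.01. Scaling to a common spread left 17 lower, and the uncentred fit 18 lower and 0 higher. RPS26A fell most, by 0.50, and RPL41A was higher by 0.34. Copies of duplicated ribosomal protein genes are nearly identical and may share signal.

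Genes of the phosphate pathway, not all of which the factor Pho4 induces when phosphate runs low, were lower in 17 of 28 cases and higher in 6, with a median of -0.24. These counts include 5 regulators of the pathway, of which 2 were higher and 2 lower. For the whole list, the count of 6 was 3 without dot4 null set 1, with quantile normalization and from channel 2 alone, and 2 without centring. The genes were already below wild type in the dot4 null, with a median of -0.33, and reached -0.50 in the double null sets. The secreted acid phosphatases carried the largest decreases. PHO11 was at -1.52, -1.29 and -1.33 in the dot4 null sets and at -2.17, -2.15 and -2.28 in the double null sets, and differed by -0.82 ± 0.06 (adjusted p = 4.13e-06, limma). PHO5, the main repressible acid phosphatase, was at -0.61, -0.56 and -0.61 and at -1.21, -1.38 and -1.46, and differed by -0.75 ± 0.07. The sets did not overlap for either gene. PHO3 and PHO12 fell by 0.78 and 0.74. PHO5, PHO3, PHO11 and PHO12 share much of their sequence, so their probes may share signal.

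In the ubp8 null PHO5, PHO3, PHO11 and PHO12 stood at -0.80, -0.76, -0.64 and -0.56, and the test of dependence on DOT4, given further on, called none of them, with values from -0.18 to 0.05. Members of the list that went the other way were PHM8, a lysophosphatidic acid phosphatase, at 0.92 ± 0.07, and DIA3, an acid phosphatase homologue, at 0.84 ± 0.08. DIA3 differed by 0.31 in channel 1 and 1.37 in channel 2. With quantile normalization the list's median was -0.11.

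Purine synthesis genes were called lower in 15 of 16 cases and in none higher, with a median of -0.28. ADE17, which makes the last step to inosine monophosphate, was at -0.35, -0.42 and -0.38 in the dot4 null sets and at -1.08, -1.34 and -1.41 in the double null sets, and differed by -0.90 ± 0.07 (adjusted p = 4.93e-06, limma). ADE17 is among the 15 largest decreases, chosen without overlap of the sets, and was at -0.71 in the ubp8 null. ADE57, a synthesis enzyme of earlier steps, and ADE1 fell by 0.56 and 0.48. ADE2 fell by 0.62, from 0.79 in the dot4 null to 0.17 in the double null, and is also in use as a strain marker.

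Of the zinc regulon, driven by Zap1, 8 of 12 were lower and 3 higher, a count of increases that was 1 from channel 2 alone and 0 without centring. ZRT1, the high-affinity zinc transporter, fell by 0.69, from 0.97 to 0.28, and ZRC1, the vacuolar zinc transporter, fell by 0.43. The list also holds ADE17 and ADH4, the latter described with the strain markers. These 2 and ZRT1 are its 3 decreases past 1.5-fold. ZRT1 is the ORF next to ADH4, and stood at -0.58 in the ubp8 null. For ZRT1 too, a difference in markers between the strains and the loss of UBP8 cannot be told apart. FET4, a low-affinity iron transporter, fell by 0.74, while the iron regulon as a whole had 7 of 23 higher and 5 lower, and 4 higher without dot4 null set 2, without double null set 2 or without centring. YGL039W, an aldehyde reductase, differed by -0.76 ± 0.06 and was nearer to wild type in the ubp8 null, at -0.14.

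Thiamine genes were higher in 11 of 17 cases and lower in 2, with a median of 0.28. THI4, the thiazole synthase, was at 0.97, 0.72 and 0.47 in the dot4 null sets and at 1.99, 1.87 and 1.76 in the double null sets, and differed by 1.15 ± 0.13 (adjusted p = 4.58e-05, limma). THI5, THI11 and THI12, near-identical genes for the pyrimidine moiety whose signals may mix, differed by 0.79, 0.85 and 0.74. Of the 6 SNZ and SNO genes of vitamin B6 synthesis all were called higher, SNZ3 most, at 0.93 ± 0.04, but the call of SNZ2 was lost under 13 of 17 alternatives, 5 of the 6 left-out sets among them. SNZ2, which lacks a set mean in the fit, overlapped between the genotypes and was 1.06 in channel 1 and 0.04 in channel 2. Whether probes of related SNZ or SNO genes share signal was not tested.

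Of the NAD synthesis genes, 8 of 13 were higher and 5 lower. Beside BNA5, PNC1, the nicotinamidase that keeps Sir2 active, differed by 0.95 ± 0.07, BNA1 by 0.86 ± 0.06 and BNA2, the first enzyme of the path from tryptophan, by 0.72 ± 0.06. Genes for arginine, allantoin and urea were higher in 13 of 22 cases and lower in none, and in 8 without centring. DAL1, allantoinase, was at 0.09, -0.32 and -0.01 in the dot4 null sets and at 1.38, 1.14 and 0.98 in the double null sets, and differed by 1.24 ± 0.12. ARG1, argininosuccinate synthase, was at -0.92, -0.83 and -0.71 and at 0.18, 0.02 and 0.36, and differed by 1.01 ± 0.09. For ARG1 every dot4 null set was below wild type and no double null set was far from it.

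Histone genes, whose H2B product is the substrate of both proteases, were called higher in all 11 cases, with a median of 0.28. HTB2, which encodes H2B, was at -0.13, -0.12 and -0.19 in the dot4 null sets and at 0.66, 0.56 and 0.40 in the double null sets, and differed by 0.69 ± 0.06 (adjusted p = 7.66e-06, limma). HTB1, the other H2B gene, was at -0.09, -0.04 and -0.21 and at 0.64, 0.51 and 0.41, and differed by 0.63 ± 0.06. In both genes every double null set was above every dot4 null set, and the ubp8 null stood at 0.07 and 0.07. The H2A genes HTA1 and HTA2 differed by 0.42 ± 0.07 and 0.33 ± 0.06. Copies of a histone gene are close in sequence and may share signal. Without the array of the conflicting strain number 7 of the 11 were called, with a median of 0.22, and with quantile normalization 7, with a median of 0.18.

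Of 20 genes that place, remove or read H2B ubiquitin, 7 were lower and 1 higher, none by 1.5-fold, and 12 were not called. The share lower, 35.0%, was near the 29.2% of all ORFs. Of the 10 genes listed as histone methyltransferases, 3 were lower and 1 higher, with a median of -0.01. Among the 7 lower genes, RAD6, the ubiquitin-conjugating enzyme, fell by 0.21, BRE1, its ligase, by 0.20, and SWD2 and SWD3, subunits of the Set1 methyltransferase complex, by 0.27 and 0.28. RAD6 was -0.12 in channel 1, where it was not called, and -0.31 in channel 2. BRE1 lost its call from channel 2 alone (-0.21), without double null set 1 and without dot4 null set 3. Of the other SAGA subunits, 10 of 17 were lower and none higher, with a median of -0.16. Without dot4 null set 2, or without dot4 null set 3, the count was 6, and without the latter 4 of the 20 H2B ubiquitin genes were lower. SGF29 fell by 0.38 and TAF10 by 0.25, the latter not called from channel 1 alone (-0.13). TAF12 fell by 0.34, but was -1.33 in channel 1 and 0.65 in channel 2, and lost its call without any of the 3 dot4 null sets or double null set 3. Among other ubiquitin-specific proteases 6 of 16 were higher, led by UBP11 at 0.51 ± 0.05 and UBP9 at 0.43 ± 0.05, and 4 were lower, led by UBP1 at -0.26 ± 0.04. Without centring both counts were 3.

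DNA damage response genes were higher in 13 of 16 cases and lower in none, with a median of 0.28. RNR3, the damage-inducible subunit of ribonucleotide reductase, was at -0.02, -0.14 and -0.04 in the dot4 null sets and at 1.01, 1.03 and 1.03 in the double null sets, and differed by 1.09 ± 0.04 (adjusted p = 2.1e-07, limma). With quantile normalization 7 of the 16 were called higher.

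The chromosome ends, where Ubp10 acts in silencing, showed opposite differences for 2 repeated families. The seripauperin genes, a subtelomeric family of cell wall mannoproteins, were higher in 19 of 23 cases and lower in none, with a median of 0.29, from 0.84 in the dot4 null to 1.12 in the double null sets. PAU15 and PAU19 differed by 0.46 ± 0.06 and 0.44 ± 0.05. This direction did not hold with quantile normalization, where 1 was higher and 1 lower, with a median of -0.03. Without centring 5 were higher and 2 lower, after scaling to a common spread 12 were higher and 1 lower, and 2 were lower when double null set 3 was left out. The Y' helicase genes, in the telomeric Y' elements, were lower in 7 of 7 cases, with a median of -0.43 (-0.26 in channel 1 and -0.56 in channel 2). YRF1-6 was at 1.02, 0.99 and 1.09 in the dot4 null sets and at 0.54, 0.59 and 0.54 in the double null sets. Its 6 set means all stood above wild type and did not overlap between the genotypes. Members of each family are near-identical, so their probes may share signal and are not independent. The anaerobic cell wall gene TIR1, which is not subtelomeric, was higher by 1.04 ± 0.06.

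By position, of the 5 outermost ORFs of each chromosome arm 65 of 160 were higher and 47 lower, with a median of 0.10. The next 5 had 76 higher and 30 lower (0.13), the 5 after those 62 higher and 44 lower (0.07), and the remaining 5725 ORFs 1597 higher and 1693 lower (-0.01). Without repeated families, the seripauperin and Y' helicase genes among them, 125 of the outermost ORFs remain, with 48 higher and 39 lower (0.08). With quantile normalization the median of the outermost ORFs was -0.01, with 28 higher and 51 lower, and that of the ORFs in places 11 to 15 was 0.03, with 39 higher and 41 lower. Without centring the outermost ORFs had 27 higher and 45 lower (0.00), the next 5 had 38 higher and 24 lower (0.04) and the 5 after those 24 higher and 32 lower (-0.03). Differences of the outermost ORFs ran from -0.82 (PHO11) to 1.07 (HXK1), and those of the next 5 from -1.46 (ADH4) to 0.94. Other increases near the ends included SNO4, of the HSP31 chaperone family, at 0.81 ± 0.09, and YJL218W at 0.94 ± 0.05. Over the 16 chromosomes the median difference ran from -0.04 on VII and XV to 0.10 on VI.

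Ty element ORFs, the retrotransposon genes of yeast, were lower in 28 of 34 cases and higher in 2, 17 of the decreases being at least 1.5-fold. This list was drawn up after the names in the table were seen. The median was -0.58, but -0.96 in channel 1, where 28 were called lower, and -0.21 in channel 2, where 3 were. With quantile normalization 18 were lower, with a median of -0.33, and the 2 higher calls were lost there and without double null set 1 or 2 or dot4 null set 2 or 3. YJR027W was at -0.03, 0.46 and -0.18 in the dot4 null sets and at -1.11, -0.88 and -1.05 in the double null sets, and differed by -1.10 ± 0.21 (adjusted p = 0.00114, limma), with -1.61 in channel 1 and -0.59 in channel 2. YBL005W-A, YAR009C and YMR046C fell by 0.84, 0.82 and 0.78. Ty copies share their sequence and count as few independent measurements. What makes the orientations differ was not tested.

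**Figure D3:**
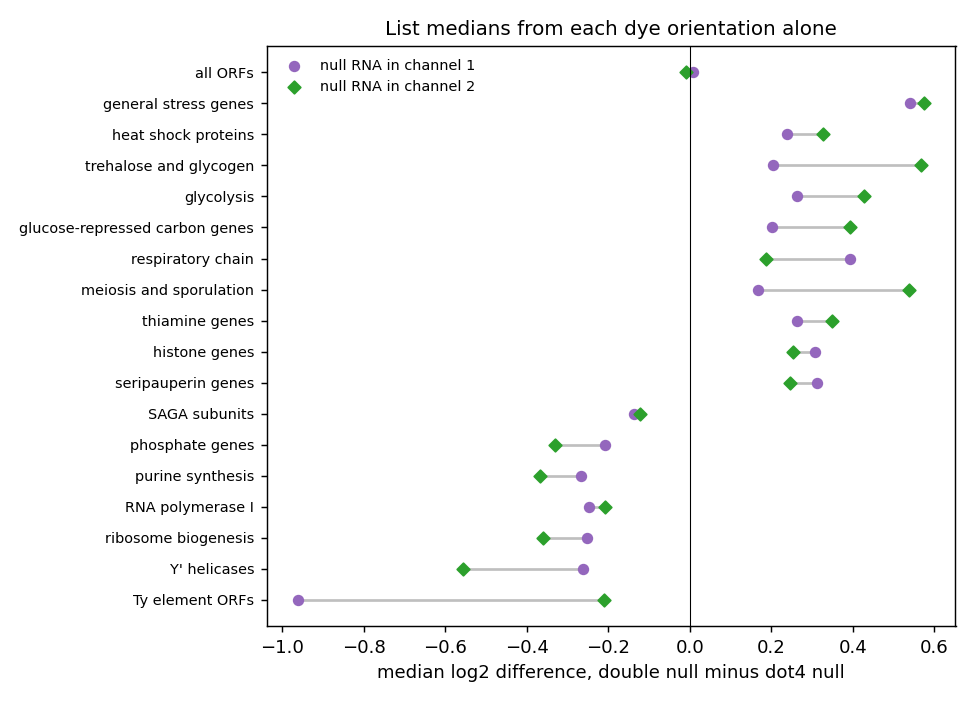
Median log2 difference, double null minus dot4 null, of all ORFs and of 17 gene lists (horizontal axis), computed from the arrays with null RNA in channel 1 alone (circles) and in channel 2 alone (diamonds). Each of these 17 lists keeps its side of 0 in both, and the Ty element ORFs differ most, at -0.96 and -0.21.

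Genes in common use as markers in strain construction held some of the largest differences. The labels do not say which markers each strain carries, so for these genes a difference in markers between the strains and the loss of UBP8 cannot be told apart. URA3, of uracil synthesis, was at 3.54, 3.67 and 3.31 in the dot4 null sets and at 1.05, 1.25 and 1.43 in the double null sets. All 6 set means lay above wild type, and the double null was 4.8-fold lower, a difference of -2.26 ± 0.12 (adjusted p = 1.44e-06, limma). ADH4, a zinc-regulated alcohol dehydrogenase gene near a chromosome end that is used as a site for marker insertion, was at 3.59, 3.36 and 3.12 and at 1.90, 1.94 and 1.84, and differed by -1.46 ± 0.10 (2.76-fold). In the ubp8 null URA3 was at -0.41, from 2 set means since a value of set 1 is missing, and ADH4 at -0.06.

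HIS3, of histidine synthesis, was at -1.90, -1.83 and -1.84 in the dot4 null sets and at -0.20, -0.43 and -0.48 in the double null sets, a difference of 1.49 ± 0.06 or 2.8-fold. All 6 set means were below wild type, the dot4 null far more so. YOR203W, the ORF next to HIS3, differed by 1.29 ± 0.08, and whether its probe reads HIS3 RNA was not tested. LEU2 differed by 0.43 ± 0.05 and MET17 by -0.34 ± 0.05, while TRP1, LYS2 and CAN1 were not called.

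**Figure D4:**
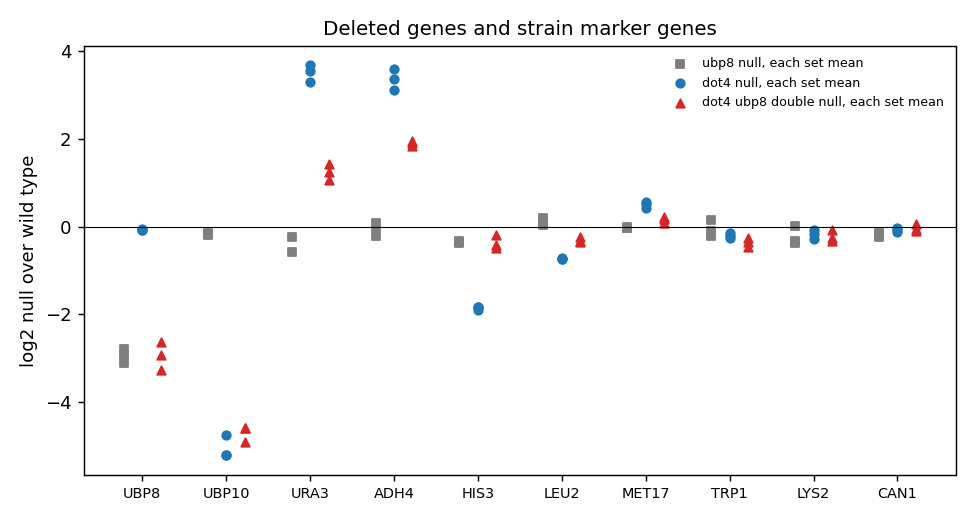
Log2 ratio of null over wild type (vertical axis) of the 2 deleted genes and 8 marker genes in each set mean of the ubp8 null (squares), dot4 null (circles) and double null (triangles). UBP8 is low in the ubp8 null and double null and UBP10 in the dot4 null and double null, and URA3 and ADH4 are highest in the dot4 null.

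How far the difference depends on DOT4 was tested as double null minus dot4 null minus ubp8 null, which is 0 where UBP8 loss does the same on the log2 scale with and without DOT4. With DOT4 present, the ubp8 null was higher than wild type for 1862 ORFs (30.0%) and lower for 1778 (28.7%), and 26 and 21 passed 1.5-fold, against 251 and 45 without DOT4. These counts rest on unlike measures. The ubp8 null value is a single group mean, with a median standard error of 0.034. The difference without DOT4 subtracts the dot4 null mean, with a median standard error of 0.048. The dependence was called above 0 for 739 ORFs (11.9%) and below 0 for 522 (8.41%), of which 63 and 18 were at least 1.5-fold. The count of 1261 fell to 803 without dot4 null set 2, to 730 without dot4 null set 3 and to 756 without ubp8 null set 2. It was 227 without centring and 646 with the set number as a replicate block, and rose to 1894 with array weights and 2107 from channel 2 alone.

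Among the 251 ORFs that were higher by at least 1.5-fold without DOT4, the median difference was 0.74, the same ORFs had a median of 0.34 in the ubp8 null, and 22 passed 1.5-fold there. The dependence was called for 211 of them, in each case above 0. Among the 45 lower ORFs the medians were -0.66 and -0.46, 19 passed 1.5-fold in the ubp8 null, and the dependence was called for 15, below 0 in 13. These ORFs were chosen by their difference without DOT4, which is part of the dependence, so the counts describe them and are read with that in mind.

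The largest dependence above 0 was in BPH1 at 1.93 ± 0.14 (adjusted p = 3.96e-05, limma), HIS3 at 1.83 ± 0.08, YOR203W at 1.82 ± 0.10, HXK1 at 1.35 ± 0.06 and BNA5 at 1.18 ± 0.08. The largest below 0 were URA3 at -1.85 ± 0.16 and ADH4 at -1.40 ± 0.13, then YFL065C at -0.71 ± 0.06, HPF1, a cell wall mannoprotein gene, at -0.70 ± 0.08 and YIR042C at -0.70 ± 0.06. HPF1 was 0.83 above wild type when DOT4 alone was missing and 0.33 in the double null, against 0.21 in the ubp8 null. YIR042C was lower after UBP8 loss without DOT4, with a difference of -0.15 ± 0.05, but higher in the ubp8 null, at 0.55. Its difference was 0.02 and not called from channel 2 alone, and the call was lost in 9 of 18 alternatives.

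By list, the dependence was called above 0 for 24 of 38 respiratory genes, 22 of 45 general stress genes, 12 of 20 storage sugar genes and 20 of 59 sporulation genes, and in none of these below 0. GPH1 was at -0.16 in the ubp8 null, with a dependence of 1.16 ± 0.12, and ARG1 at 0.06, with 0.95 ± 0.11. The dependence was below 0 for all 7 Y' helicase genes, which were higher than wild type in the ubp8 null, with a median of 0.17. Ribosome biogenesis genes had 17 of 96 below 0 and 1 above, and purine synthesis genes 1 below and 2 above. HTB1 and HTB2 had a dependence of 0.56 ± 0.07 and 0.61 ± 0.07, the only histone genes called.

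**Figure D5:**
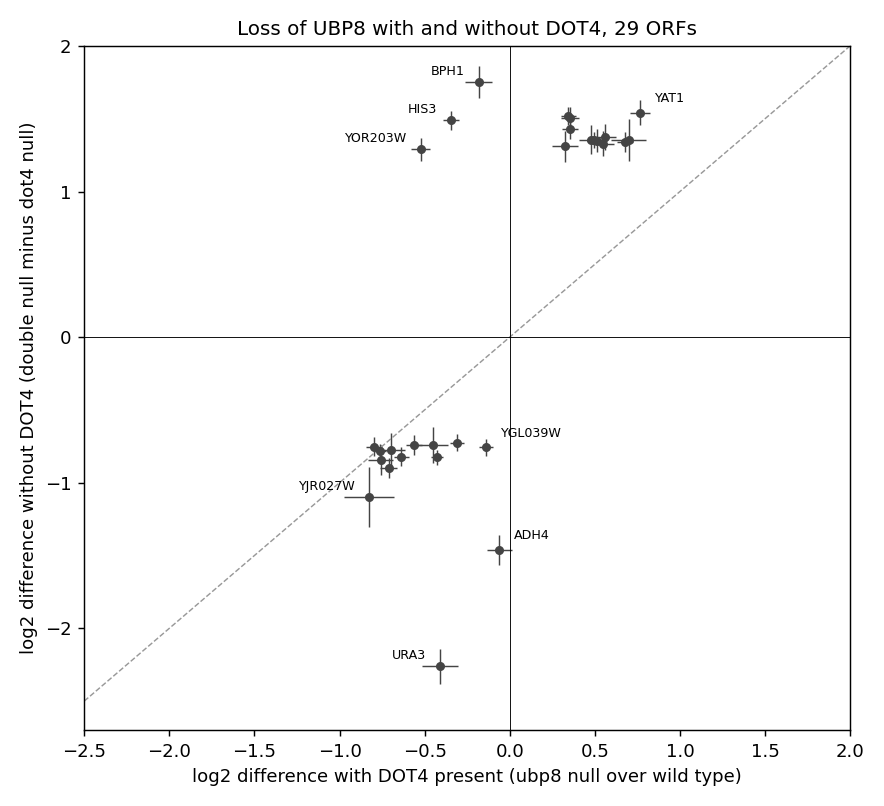
Log2 difference made by UBP8 loss without DOT4 (double null minus dot4 null, vertical axis) against that with DOT4 present (ubp8 null over wild type, horizontal axis) for 29 of the 30 ORFs with the largest differences, UBP8 left out. Points are fitted values, bars are standard errors and the dashed line marks equal values, on which a dependence is 0. The increases lie above the line, with BPH1, HIS3 and YOR203W on the other side of 0 in the ubp8 null, and URA3 and ADH4 lie farthest below it.

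No gene specific to a mating type differed by 1.5-fold. Of 7 genes specific to a cells 2 were higher and 4 lower, with MFA2 at 0.42 ± 0.06 and BAR1 at -0.47 ± 0.05, and of 4 genes specific to alpha cells 3 were higher, STE3 at 0.58 ± 0.07 and MF(ALPHA)1 at 0.56 ± 0.07. MF(ALPHA)2, also called higher, lost its call under 11 of 18 alternatives. The remaining alpha-cell gene, SAG1, went the other way, at -0.36, and was not called. MFA2 was 0.17 and not called from channel 2 alone, and from channel 1 alone 2 of the 7 a-cell genes were lower, with a median of -0.06 against -0.20. From channel 1 alone 1 of the 4 alpha-cell genes was higher, with a median of 0.10 against 0.34, and STE3 was 0.16 and not called (adjusted p = 0.431, limma). Without double null set 1 or 2 or dot4 null set 2 or 3, 2 of the 4 were higher. Without dot4 null set 3, and without centring, 1 of the 4 was called lower. The silent mating cassettes and SIR genes had 5 of 18 higher and 5 lower, 3 higher without dot4 null set 1, without double null set 2 or with quantile normalization, 2 higher and 3 lower from channel 1 alone, and 1 higher and 2 lower without centring. Genes induced by pheromone had 4 of 22 higher and 7 lower, proteasome subunits 7 of 33 higher and 3 lower, and genes of folding in the endoplasmic reticulum 2 of 15 higher and 2 lower, with list medians between -0.03 and 0.03. Without dot4 null set 1, 4 proteasome subunits were called higher and 4 lower, from channel 1 alone 16 and 1, from channel 2 alone 1 and 9, and without centring none. Of the pheromone genes, 2 were higher with quantile normalization and 1 without centring.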

How the data were processed

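The authors deposited log2 ratios of channel 2 over channel 1 for 6205 ORFs on 18 arrays. Of background correction and normalization, the sources used here give nothing, and the array medians ran from -0.177 to 0.304. Base 2 was inferred from the stand-in value, a power of 10 on that scale. The labels read as channel 1 over channel 2, but UBP8 and UBP10 are low in the strains that lack them only as channel 2 over channel 1, which set the direction. The 9 empty values and 2 stand-in values were treated as missing, so that 6195 ORFs have all 9 set means. Arrays were centred on the median, turned to null over wild type and averaged per set, and limma 3.58.1 in R 4.3.3 fitted 3 genotypes to the set means with lmFit and eBayes, with Benjamini-Hochberg adjustment. Arrays give no depth, so their number limits the precision.

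Same-numbered sets of dot4 null and double null correlated at 0.088, 0.134 and 0.239 in their deviations. For double null sets 2 and 3 the dot4 null set of the same number was the best match, and for set 1 it was not. Set numbers were not taken as pairs, but these values do not exclude a pairing. Counts with the set number as a replicate block are given with the alternatives. RefSeq (R64) gave symbols for 5705 ORFs, and 500 keep the name in the table. Members and gene lists were chosen with earlier results of these data known. The text names the deleted genes and their neighbours, the 15 largest called increases and decreases without overlap, up to 4 called members of each list, marker genes and the 5 largest dependences in each direction. In data simulated for the contrast over 6195 ORFs, the fit recovered 1 of 50 changes of 0.1, 37 of 50 of 0.25 and 50 of 50 of 0.5. All other ORFs were simulated with equal means in both genotypes, and the noise was drawn from the fitted variances. Far fewer ORFs differed there than in the data, which makes the adjusted p stricter. These shares therefore do not give the recovery in the contrast itself.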

Additional observations from a re-analysis of the deposited data

Results flagged for a closer look

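The ORFs considered here were named as deleted genes, neighbours, markers, largest changes or largest dependences on DOT4. For 30 of them the difference made by UBP8 loss was not the same with and without DOT4 by the limma test of the dependence. Of the 30, 21 were above 0 and 9 below. Over all 6205 ORFs the same test called 1261. Values are double null minus dot4 null minus ubp8 null, on the log2 scale. Since most of these ORFs were chosen for their size without DOT4, many of these values repeat that choice. The ORFs named as largest dependences were chosen by the tested value itself, so their place among the 30 follows from that choice. YFL065C, HPF1, YIR042C and HXK1 came in by that rule alone. Among genes of stress, carbon and reserve metabolism the values were HXK1 at 1.35, HSP12 at 1.07, GLK1 at 0.84, HSP26 at 0.81, SOL4 at 0.78 and YAT1 at 0.78. Among marker genes they were HIS3 at 1.83, ADE2 at 0.34, LEU2 at 0.32, CAN1 at 0.24, MET17 at -0.33, ADH4 at -1.40 and URA3 at -1.85. The deleted UBP10 and its neighbour gave UBP10 at 0.53 and SWT21 at 0.41. For UBP10 the difference between double null and dot4 null had opposite signs in the 2 orientations. The other values above 0 were BPH1 at 1.93, YOR203W at 1.82, BNA5 at 1.18, YLR232W at 1.15, PRY1 at 0.99, IRC18 at 0.88, CDA1 at 0.86, ATG34 at 0.66 and FMP48 at 0.65, and the other values below 0 were YAR009C at -0.40, YCR018C-A at -0.41, YGL039W at -0.62, YIR042C at -0.70, HPF1 at -0.70 and YFL065C at -0.71.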

How the results depend on the processing

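The count of ORFs that differed between double null and dot4 null was 3614. It lay between 3042 and 3560 without each set in turn, was 3523 without the array of the conflicting strain number and 3607 with the set number as a replicate block. Leaving out sets gave 1560 to 1845 higher and 1482 to 1765 lower ORFs, 230 to 271 and 40 to 48 past 1.5-fold, 2664 to 3313 for UBP8 loss with DOT4 and 730 to 1595 for the dependence on DOT4. Without centring, the counts were 1982 differing without DOT4 (664 higher, 33.5% against 49.8%), 81 lower past 1.5-fold, 1582 with DOT4 and 227 for the dependence. Quantile normalization left 122 higher and 27 lower past 1.5-fold, and scaling to a common spread 18 lower. Channel 1 alone gave 115 lower past 1.5-fold, and channel 2 alone gave 384 higher, 2287 with DOT4 and 2107 for the dependence. The dependence count, 1261 in the report, was 646 with the replicate block, 1894 with array weights, and among single sets fell furthest without dot4 null set 2 (803), ubp8 null set 2 (756) and dot4 null set 3 (730). Where null RNA was in channel 2 the sign turned for UBP10 (-0.45), YIR042C (0.021), TAF12 (0.649) and PRE3 (-0.026), for TRP1 (0.012), not called in either fit, and for the medians of COS genes (-0.021), proteasome subunits (-0.026), ubiquitin-specific proteases (0.069), pheromone genes (0.03) and silencing genes (0.003). Where it was in channel 1 it turned for GUK1 (0.064), DAN4 (-0.063), HXT10 (-0.014), the uncalled MRE11 (-0.051) and MRPL19 (0.044), and the medians of guanine nucleotide synthesis (0.009) and cytosolic ribosomal protein genes (0.017). With quantile normalization it turned for PAU19 (-0.031) and the medians of seripauperin genes (-0.031) and the outermost ORFs (-0.008). Without centring it turned for the uncalled MRE11 (-0.038) and CAN1 (-0.044) and the medians of the iron regulon (-0.005), endoplasmic reticulum folding (-0.07), proteasome subunits (-0.066) and ORFs 11 to 15 from the end (-0.026). The uncalled LYS2 turned without dot4 null set 1 (0.005), without double null set 2 (0.011) and without the array of the conflicting strain number (0.092), as did, without that array, the medians of endoplasmic reticulum folding (-0.005) and silencing genes (0.001). The median of ubiquitin-specific proteases turned with array weights (0.01) and without double null set 3 (0.042). Over the named ORFs, 3390 values under an alternative kept direction and call, 172 lost the call, 2 gained it, 8 turned in sign with a call on either side and 8 turned without one. The cause was not tested in any case. Depth has no counterpart on these arrays, and the ratios do not show how far signal stood above background.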
